A study of Homo sapiens with 6 samples.

Results

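RNA-Seq counts of 10 ephrin and Eph receptor genes were compared between control HepG2 cells (NC) and HepG2 cells overexpressing a Flag-tagged open reading frame (ORF-Flag). The members were 6 ligand genes (EFNA1, EFNA2, EFNA3, EFNA4, EFNA5 and EFNB2) and 4 receptor genes (EPHA1, EPHA2, EPHB2 and EPHB4), taken by symbol from the 20422 genes of the deposited table. They were chosen by a list drawn up with measured differences of this same contrast, NC against ORF-Flag, already known, so their values, and the calls they received in the fit over all genes, are given as a description and support nothing. HepG2 is an established human liver tumour cell line, which the study describes as a hepatocellular carcinoma line. The study asked what APPLE, a microprotein encoded by the lncRNA ASH1L-AS1, does in such cells, and ASH1L-AS1 itself was not analysed here. The labels describe transfection of HepG2 with an empty vector plasmid (NC) or a plasmid for the Flag fusion (ORF-Flag), while the methods describe stable lines made with lentiviral vectors under puromycin selection. Each group had 3 libraries of total RNA. The labels do not say that these came from separate cultures, so p-values measure only the spread between these samples, which may be technical.

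Eph receptors form a large family of receptor tyrosine kinases, and their ephrin ligands stay attached to the surface of the neighbouring cell. A-class ephrins are held by a lipid anchor and B-class ephrins cross the membrane, and receptors of each class bind mostly ligands of the same class. Contact between cells starts forward signalling in the receptor cell and reverse signalling in the ligand cell, which together steer adhesion, repulsion and movement. In epithelial cells and their tumours, EPHA2 and its preferred ligand ephrin-A1 are the best known pair, while EPHB4 and ephrin-B2 are known for separating veins from arteries.

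By replicate number, the NC libraries summed to 20081203, 24907524 and 30088457 counts and the ORF-Flag libraries to 26866148, 17494668 and 27015836 counts, and values by library are given in this order throughout. At these depths 3 counts, taken as the floor of detection, stood for between 0.1 and 0.172 CPM, the counts scaled to a common library size with TMM factors. This floor covers counting error only. Of the 10 members, 7 passed edgeR's filter on low counts, and EFNA3, EFNA5 and EPHB2 did not. EFNA3 had 1 count over the 6 libraries, in ORF-Flag replicate 3, EFNA5 had at most 2 counts in a library and EPHB2 at most 3. Both groups lay at or under the floor for these 3 genes, so no fold is given.

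With edgeR's quasi-likelihood test, adjusted over all 12386 tested genes, 3 members had an adjusted p below 0.05, termed called here, which for the members only describes the values that chose them. EPHA2 and EFNA1 were higher in ORF-Flag and EFNA4 was lower. Over all tested genes, 551 or 4.45% were called, with 2.47% higher and 1.98% lower, and because this contrast chose the members, nothing is read from their count. The libraries of the groups did not overlap for EPHA2, EFNA1, EFNA4 and EPHB4, 4 of the 7 tested members, against 22.4% of all tested genes. The median log2 fold change of the 7 tested members was -0.10, and that of all tested genes was -0.001. The count over all genes was 267 without NC replicate 2, 1058 without NC replicate 3, 300 without ORF-Flag replicate 1, 278 without ORF-Flag replicate 2 and 199 without ORF-Flag replicate 3.

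**Figure D1:**
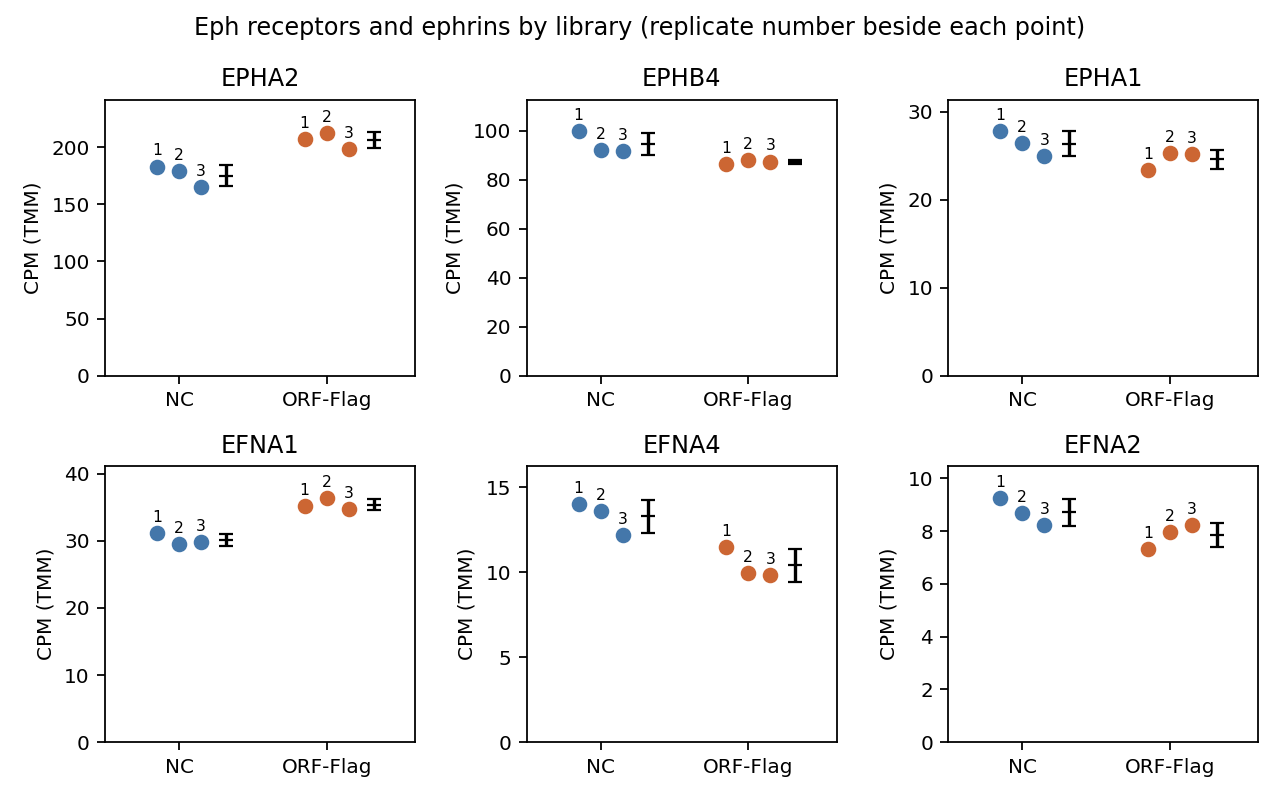
TMM-scaled CPM of the 6 members above the range of a few counts, from 0 on each axis, with 1 point per library and its replicate number, and the mean ± SD of 3 libraries as a black bar. The groups are apart for EPHA2 and EFNA1, where ORF-Flag is higher, and for EFNA4 and EPHB4, where ORF-Flag is lower.

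Among the ligands, EFNA1 (ENSG00000169242.12) encodes ephrin-A1, a ligand best known for binding EPHA2. Its NC libraries gave 31.2, 29.6 and 29.8 CPM, and its ORF-Flag libraries 35.2, 36.4 and 34.7 CPM. Each ORF-Flag library lay above each NC library. The log2 fold change was 0.23 (SE 0.06), or 1.17 times the NC level. EFNA1 was no longer called without NC replicate 2 (log2 fold change 0.21) or without ORF-Flag replicate 1 (0.23), 2 (0.21) or 3 (0.24), so its call needed most of the libraries while its size hardly moved.

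EFNA4 (ENSG00000243364.8) encodes ephrin-A4, another A-class ligand held by a lipid anchor. It measured 14.0, 13.6 and 12.2 CPM in the NC libraries, then 11.5, 9.94 and 9.81 CPM in the ORF-Flag libraries. The lowest NC library thus stayed above the highest ORF-Flag library by a margin smaller than the SD of either group, 0.968 CPM in NC and 0.965 CPM in ORF-Flag. The log2 fold change was -0.34 (SE 0.09), or 0.792 times the NC level, and 6.35% of all tested genes had a larger absolute log2 fold change. EFNA4 was not called by DESeq2 (-0.34), nor without NC replicate 1 (-0.30), NC replicate 2 (-0.32), ORF-Flag replicate 2 (-0.31) or ORF-Flag replicate 3 (-0.29).

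EFNA2, which encodes ephrin-A2, a ligand best known from the guidance of nerve fibres, was the third A-class ligand with a clear level. NC held 9.25, 8.69 and 8.22 CPM, compared with 7.33, 7.98 and 8.22 CPM for ORF-Flag. Replicate 3 of the groups met at the same rounded value, the groups overlapped, and EFNA2 was not called, with a log2 fold change of -0.15 (SE 0.10) that was -0.10 when ORF-Flag replicate 1 was left out and -0.19 when NC replicate 3 was. EFNB2, the transmembrane ligand of EPHB4, had between 7 and 13 counts in each library. The NC mean was 0.37 ± 0.125 CPM (SD, n = 3), and the ORF-Flag mean 0.508 ± 0.114 CPM (SD, n = 3). With a log2 fold change of 0.45 and an SE of 0.43, any difference was not detectable at this depth, and the log2 fold change was 0.16 without NC replicate 3 and 0.70 without NC replicate 2.

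Among the receptors, EPHA2 (ENSG00000142627.13) was the member with the most counts, between 3694 and 5572 in each library. EPHA2 binds A-class ephrins, and without ligand it is known to be a substrate of growth factor signalling kinases. The NC libraries stood at 183, 179 and 165 CPM, and the ORF-Flag libraries at 207, 212 and 198 CPM. All ORF-Flag libraries lay above all NC libraries. The log2 fold change was 0.23 (SE 0.04), or 1.18 times the NC level, and 12.2% of all tested genes had a larger absolute log2 fold change. Over the 13 alternative settings run, its log2 fold change lay between 0.19 and 0.26.

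EPHB4, the receptor of ephrin-B2, measured 100, 92.2 and 91.9 CPM in the NC libraries, then 86.4, 88.2 and 87.5 CPM in the ORF-Flag libraries. NC replicate 1 stood apart from its group, the ORF-Flag libraries were close together, and the groups did not overlap. The log2 fold change was -0.11 (SE 0.04), and was -0.08 without NC replicate 1. EPHB4 was not called unless NC replicate 3 was left out (-0.14). EPHA1, the receptor first cloned from a hepatocellular carcinoma line, from which the family takes its name, gave 27.8, 26.5 and 25.0 CPM for NC, compared with 23.4, 25.3 and 25.2 CPM for ORF-Flag. The groups overlapped through NC replicate 3, and the log2 fold change of -0.10 (SE 0.06) was not called, and was -0.06 when ORF-Flag replicate 1 was left out and -0.14 when NC replicate 3 was.

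**Figure D2:**
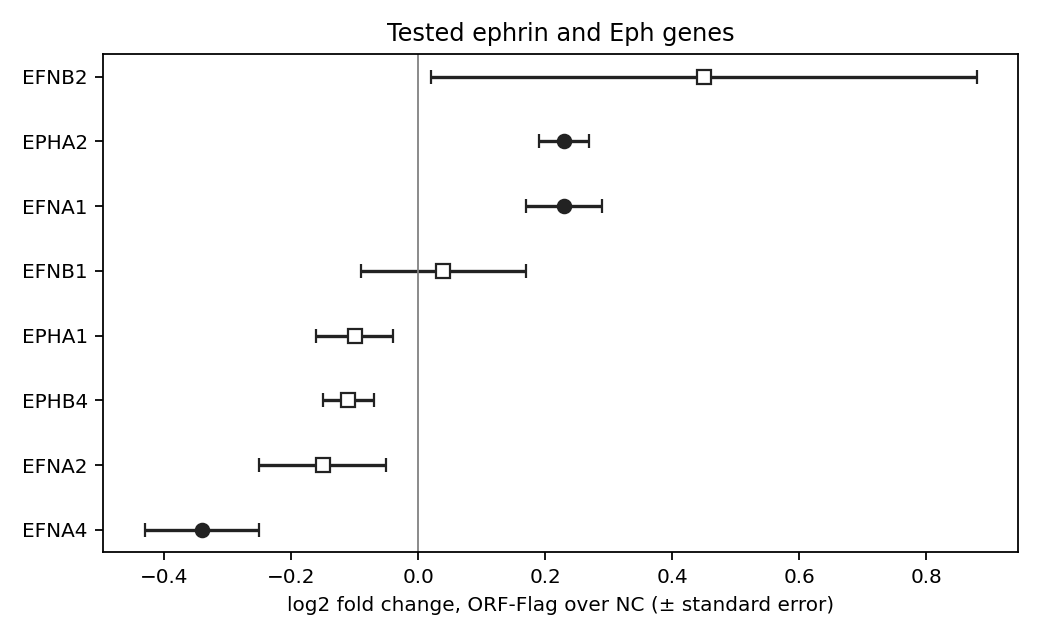
Log2 fold change of ORF-Flag over NC with its standard error for the 7 tested members and EFNB1, with filled circles for genes called at an adjusted p below 0.05 and open squares for the rest. EPHA2 and EFNA1 share a value of 0.23, EFNA4 lies lowest at -0.34, and EFNB2 has the widest error.

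The start regions of the called members are shown because the receptor EPHA2 and its ligand EFNA1 were both higher while EFNA4 was lower. Each is a window of 300 bases, 250 before and 50 after the start of the gene, from RefSeq on GRCh38.p14, which held a window for each of the 10 members. The EPHA2 window is chr1:16156020-16156319 on the minus strand, that of EFNA1 is chr1:155127626-155127925 and that of EFNA4 is chr1:155063490-155063789, both on the plus strand. GENCODE release 29 places the outermost start of EFNA1 upstream of its window. The sequences run 5′ to 3′ along the gene, with capitals for each match to a searched motif on either strand.
EPHA2: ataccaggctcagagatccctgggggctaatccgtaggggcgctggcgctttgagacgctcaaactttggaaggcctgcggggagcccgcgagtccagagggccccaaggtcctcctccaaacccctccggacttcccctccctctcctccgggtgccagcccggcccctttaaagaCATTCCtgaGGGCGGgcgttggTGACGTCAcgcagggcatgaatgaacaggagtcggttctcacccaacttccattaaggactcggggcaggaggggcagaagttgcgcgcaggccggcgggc
EFNA1: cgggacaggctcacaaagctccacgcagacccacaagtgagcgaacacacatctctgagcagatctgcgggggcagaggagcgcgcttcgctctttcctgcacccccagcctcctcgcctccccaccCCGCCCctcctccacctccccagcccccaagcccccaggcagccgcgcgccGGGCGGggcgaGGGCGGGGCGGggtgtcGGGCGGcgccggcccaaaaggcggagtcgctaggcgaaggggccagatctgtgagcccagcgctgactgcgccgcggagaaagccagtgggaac
EFNA4: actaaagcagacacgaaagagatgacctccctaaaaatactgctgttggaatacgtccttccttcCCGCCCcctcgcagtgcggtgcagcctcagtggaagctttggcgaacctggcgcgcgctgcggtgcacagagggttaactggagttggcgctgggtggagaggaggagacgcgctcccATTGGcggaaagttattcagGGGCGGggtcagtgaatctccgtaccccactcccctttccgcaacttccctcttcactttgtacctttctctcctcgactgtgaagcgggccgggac
The motifs searched were AP-1 (TGANTCA), CRE (TGACGTCA), ETS (CCGGAAG), the GC box (GGGCGG), the CCAAT box (CCAAT), TEAD (GGAATG) and the TATA box (TATAAA), and none of these contains another.

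The EPHA2 window held a CRE match at -51 from the start, a motif found in 1.85% of the 35116 windows of this length. It also held a GC box match at -64 (45.0% of windows) and a TEAD match at -73 (14.0% of windows). The EFNA1 window held 5 GC box matches, of which a pair overlap, and no other searched motif. The EFNA4 window held 2 GC box matches and a CCAAT box match at -67 (34.6% of windows). No window of the 3 held a match to AP-1 (7.71% of windows), ETS (10.3%) or the TATA box (11.5%), which says only that these letters are not in these windows. The GC content was 64.3% for EPHA2, 71.7% for EFNA1 and 58.3% for EFNA4, against a median of 58.7% over all windows. Across the 10 members it ran from 58.3% to 85.3%, so the EFNA4 window was the lowest of the members, and EFNA2 was the highest. A motif match is a description of sequence, and binding was not measured here.

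Levels of different genes were compared as FPKM, the CPM divided by the length in kilobases, with the union of exons of GENCODE release 29 as length. In NC, EPHA2 stood first of the members with 42.2 ± 2.25 FPKM (SD, n = 3). EPHB4 followed with 14.7 ± 0.713 FPKM, so EPHA2 was 2.87 times as high per length, or 2.36 times with the longest transcript as length. EFNA1, the ligand with the highest level on this length, had 11.9 ± 0.352 FPKM. Next came EFNA4 with 10.5 ± 0.766 FPKM and EFNA2 with 9.18 ± 0.543 FPKM, and the NC libraries of these neighbours overlapped. EPHA1 followed with 5.59 ± 0.297 FPKM, and EFNB2 was far below at 0.0737 ± 0.025 FPKM. Apart from EFNA4 and EFNA2, the NC libraries of neighbours in this order did not overlap down to EFNB2. The order of the members down to EFNB2 was the same with the longest transcript as length and without TMM factors. Both lengths of EFNA4 include 189 of 1263 exon bases that it shares with a readthrough gene. If reads on these bases were left out in counting, the level of EFNA4 is understated, and its place below EFNA1 may not hold. EFNA3, EFNA5 and EPHB2 lay at or under the floor and are not ranked.

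Per length, the A-class ligands summed to 31.6 ± 1.57 FPKM (SD, n = 3) in NC and 30.5 ± 0.32 FPKM in ORF-Flag, a difference smaller than the SD of NC. EFNA1 went from 11.9 to 13.9 FPKM, EFNA4 from 10.5 to 8.26 FPKM and EFNA2 from 9.18 to 8.27 FPKM. EFNA1 made up 34.3%, 34.3% and 36.6% of the summed ephrin level in the NC libraries, then 41.6%, 43.9% and 41.8% in the ORF-Flag libraries. The share of EFNA4 went the other way, from 30.9 ± 0.789% in NC to 25.1 ± 2.02% in ORF-Flag. Among the receptors, EPHA2 made up 67.4 ± 0.752% of the summed Eph level in NC and 72.4 ± 0.815% in ORF-Flag. EPHB4 made up 23.5 ± 0.686% in NC and 19.8 ± 0.462% in ORF-Flag. These shares use the same libraries as the fold changes above and carry no test. The ephrin sums and shares also depend on the length taken for EFNA4.

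Set among 52 receptor tyrosine kinase genes, 14 of them Eph receptors, EPHA2 was the second highest per length in NC. FGFR4, a receptor of FGF19, a hormone that controls bile acid synthesis, lay above EPHA2 at 55.1 ± 3.34 FPKM (SD, n = 3), and ERBB3 lay below it at 25.7 ± 0.516 FPKM, with no overlap of libraries on either side. EPHB4 stood at rank 5, between FGFR3 at 14.8 ± 1.4 FPKM and MET, the receptor of hepatocyte growth factor, at 14.6 ± 0.551 FPKM. The NC libraries of these neighbours overlapped with those of EPHB4. EPHA1 lay between ERBB2 at 8.53 ± 0.378 FPKM and IGF1R at 4.68 ± 0.211 FPKM, and did not overlap with either. With the longest transcript as length, EPHA2 at 44.2 FPKM stayed between FGFR4 at 85.2 FPKM and ERBB3 at 39.3 FPKM. EPHB4, at 18.7 FPKM, then lay between DDR1 at 19.5 FPKM and PTK7 at 18.6 FPKM, and EPHA1, at 7.86 FPKM, between MET at 15.5 FPKM and IGF1R at 5.33 FPKM, so both had another neighbour than with the union of exons. None of the 18 tested kinases outside the Eph family was called by edgeR, DESeq2, limma-trend or limma-voom, beside 4.45% called of all tested genes, and 3 had an unadjusted p below 0.05 in edgeR, beside 18.5% of all tested genes. ERBB3 came closest to the threshold, with a log2 fold change of -0.11 (SE 0.03, edgeR quasi-likelihood adjusted p = 0.053), and was called without TMM factors (-0.12, adjusted p = 0.044 in edgeR). Without NC replicate 3, edgeR called ERBB3 (-0.11) and FGFR4 (-0.15). The log2 fold change of FGFR4 was -0.10 with all libraries, where it was not called, and -0.06 without NC replicate 1.

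**Figure D3:**
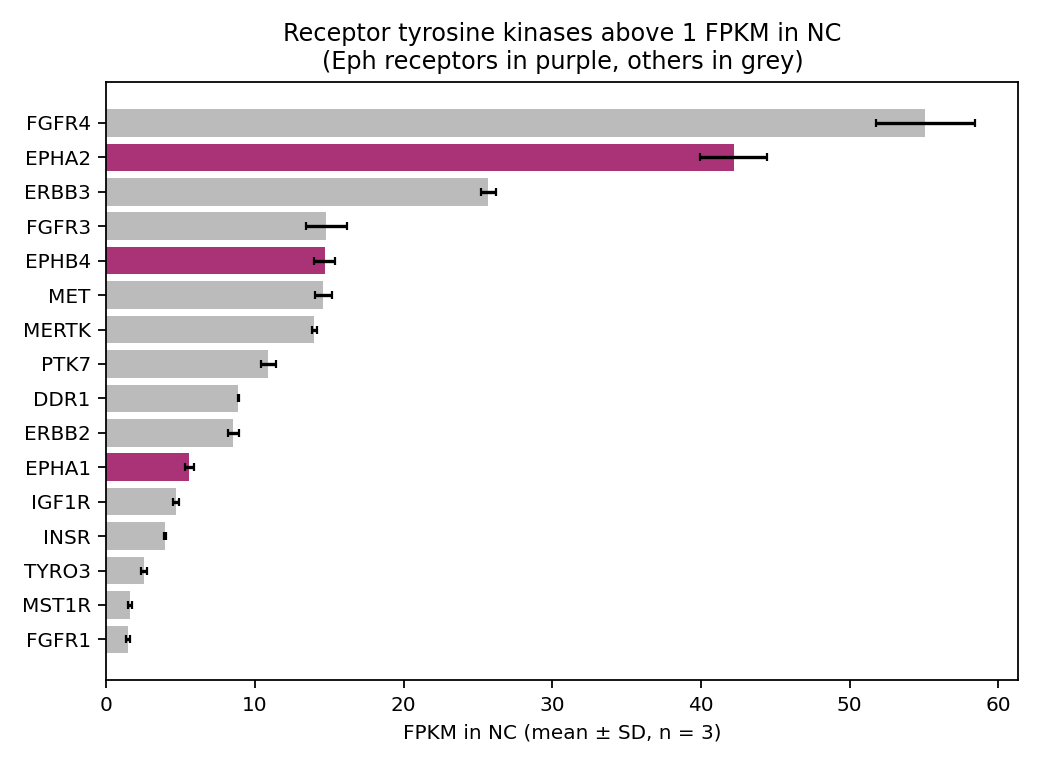
FPKM in NC, as mean ± SD of 3 libraries, of the 16 receptor tyrosine kinases with a mean above 1 FPKM, with Eph receptors in purple and other kinases in grey. EPHA2 is second at 42.2 FPKM after FGFR4 at 55.1 FPKM, EPHB4 is level with FGFR3 and MET on this length, and EPHA1 stands between ERBB2 and IGF1R.

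Of the other 12 ephrin and Eph genes of the table, 11 were too low for the test. EFNB1, a B-class ligand, was the exception, and it had 7.6 ± 1.15 CPM (SD, n = 3) in NC and 7.64 ± 1.24 CPM in ORF-Flag. Its log2 fold change of 0.04 (SE 0.13, edgeR quasi-likelihood adjusted p = 0.91) had no stable sign, at -0.07 without NC replicate 3, -0.02 without ORF-Flag replicate 1 and -0.03 without ORF-Flag replicate 3. EPHA3, EPHA4, EPHA6, EPHA7 and EPHA8 had 0 counts in all 6 libraries, where 3 counts would be at most 0.172 CPM. EFNB3, EPHA5, EPHA10, EPHB1, EPHB3 and EPHB6 had at most 17 counts in a library, reached by EPHA10 in NC replicate 1. Of the 14 receptors, EPHA2, EPHB4 and EPHA1 thus carried nearly all of the Eph signal in both groups.

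Genes of the Eph pathway were counted in lists set by known role. Of 40 genes of forward signalling, the adaptors, exchange factors and kinases downstream of Eph receptors, 35 were tested, 1 was called higher and 0 lower, beside 4.45% called of all tested genes, and the median log2 fold change was 0.008. The called gene was GRB7, an adaptor with an SH2 domain, which rose from 33.8 ± 0.94 CPM (SD, n = 3) to 38.5 ± 0.593 CPM, with all 3 ORF-Flag libraries above all 3 NC libraries. Its log2 fold change was 0.19 (SE 0.05, edgeR quasi-likelihood adjusted p = 0.04). GRB7 was not called by DESeq2 (0.19), nor without NC replicate 2 (0.20), NC replicate 3 (0.17) or ORF-Flag replicate 1 (0.18), 2 (0.19) or 3 (0.20). RHOA, the small GTPase through which many Eph receptors act on actin, was the most abundant of the list per length at 45.5 FPKM in NC, with a log2 fold change of -0.06 (SE 0.04), which was -0.10 without NC replicate 3 and -0.04 without NC replicate 1 or ORF-Flag replicate 3.

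Of 15 genes of reverse signalling and PDZ partners of B-class ephrins, 11 were tested and 0 were called by edgeR, DESeq2, limma-trend or limma-voom, beside 4.45% called of all tested genes, and 2 had an unadjusted p below 0.05 in edgeR, beside 18.5% of all. Their median log2 fold change was -0.023, and the most abundant per length, DVL1, a Dishevelled protein, was at -0.02 (SE 0.04), with 0.01 without NC replicate 1 and -0.07 without NC replicate 3. Of 15 genes for shedding and cleavage of ephrins and Eph receptors, 12 were tested, 1 was called higher and 1 lower, beside 4.45% called of all tested genes, and the median was -0.004. ADAM9, a membrane metalloprotease and the most abundant of the list, rose from 436 ± 18.5 CPM (SD, n = 3) to 474 ± 4.57 CPM, a log2 fold change of 0.12 (SE 0.03, edgeR quasi-likelihood adjusted p = 0.042). APH1A, a subunit of gamma-secretase, fell from 85.6 ± 6.5 CPM (SD, n = 3) to 75.4 ± 1.1 CPM, a log2 fold change of -0.18 (SE 0.05, edgeR adjusted p = 0.028). For both genes the libraries of the groups did not overlap, as for 22.4% of all tested genes. ADAM9 was not called when NC replicate 1 (0.09) was left out, nor without NC replicate 2 (0.12) or ORF-Flag replicate 1 (0.11), 2 (0.12) or 3 (0.12). APH1A was not called when NC replicate 1 (-0.12) was left out, nor without ORF-Flag replicate 1 (-0.18), 2 (-0.19) or 3 (-0.17).

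EFNA4, EFNA3 and EFNA1 lie in this order on the plus strand of chromosome 1. On GRCh38 in GENCODE release 29, EFNA4 spans chr1:155063731-155069553, EFNA3 spans chr1:155078872-155087538 and EFNA1 spans chr1:155127460-155134857. The starts of EFNA4, which was lower in ORF-Flag, and of EFNA1, which was higher, are 63.7 kb apart, with the nearly silent EFNA3 between them. Within 500 kb of EFNA3 the table held 35 genes, of which 25 were tested and 3 called, namely EFNA4, EFNA1 and CKS1B, a regulator of cyclin-dependent kinases. CKS1B rose from 70.3 ± 5.23 CPM (SD, n = 3) to 82 ± 2.69 CPM, a log2 fold change of 0.22 (SE 0.05, edgeR quasi-likelihood adjusted p = 0.0083), with all 3 ORF-Flag libraries above all 3 NC libraries. It was not called without NC replicate 2 (0.16) or ORF-Flag replicate 3 (0.20). Apart from the 2 ephrin genes, 1 of 23 tested neighbours was thus called, beside 4.45% of all tested genes.

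The nearest tested neighbours on either side of the ephrin genes were not called. ADAM15, a metalloprotease gene upstream of EFNA4, had a log2 fold change of -0.14 (SE 0.07, edgeR quasi-likelihood adjusted p = 0.28). SLC50A1, a sugar transporter gene downstream of EFNA1, had 0.13 (SE 0.06, adjusted p = 0.24). The groups overlapped for both. ASH1L, the histone methyltransferase gene on the opposite strand which lies 200.4 kb beyond the end of EFNA1, had 69.3 ± 3.53 CPM (SD, n = 3) in NC and 72.2 ± 2.05 CPM in ORF-Flag. Its log2 fold change was 0.06 (SE 0.05, edgeR quasi-likelihood adjusted p = 0.54), and was 0.03 without NC replicate 1, 0.10 without NC replicate 3 and 0.04 when ORF-Flag replicate 3 was left out.

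**Figure D4:**
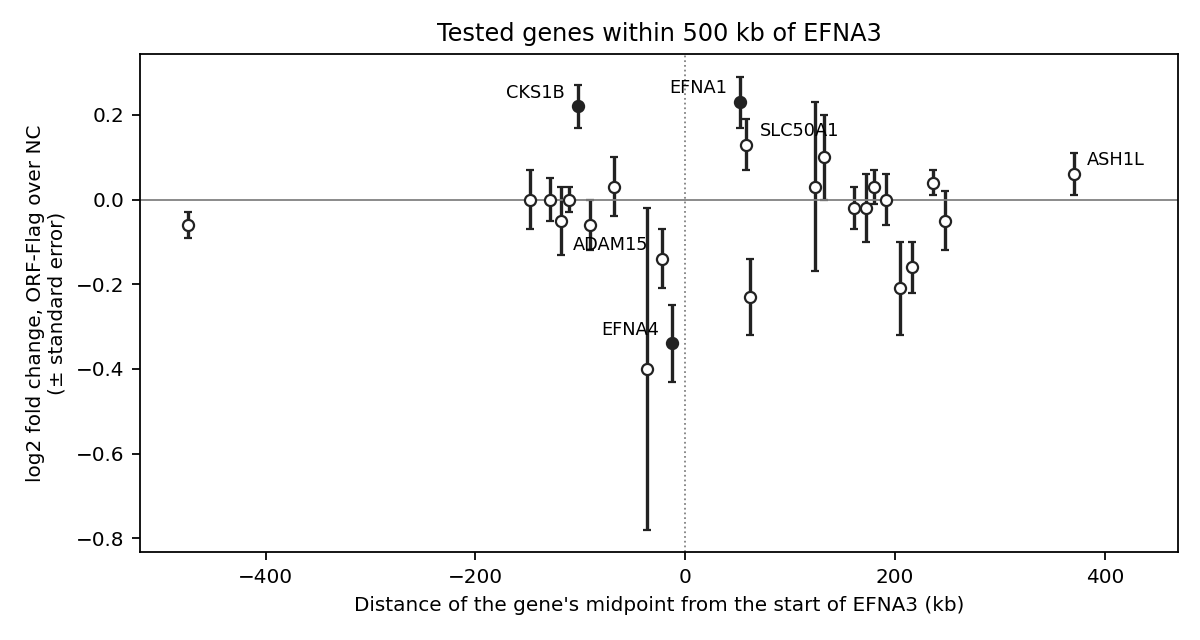
Log2 fold change of ORF-Flag over NC with its standard error for the 25 tested genes within 500 kb of EFNA3, by the distance of each gene's midpoint from the start of EFNA3 in kb, with filled points for genes called at an adjusted p below 0.05. EFNA4 at -0.34 and EFNA1 at 0.23 lie on either side of the start of EFNA3, and most neighbours are near 0.

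The annotation limits what the counts of this cluster can show. A readthrough gene that joins EFNA4 to EFNA3 shares 853 of the 1909 exon bases of EFNA3 (44.7%) and 189 of the 1263 exon bases of EFNA4 (15%), and it had 0 counts in all 6 libraries. How reads that fit several genes were counted is not given in the sources used here, so the counts of EFNA3 and EFNA4 may leave out reads from the shared parts. EFNA3 still had 1056 exon bases of its own, on which nearly no reads were counted. EFNA1 and EPHA2 shared no exon bases with another gene, and 26.2% of the exon bases of EFNB2 lay opposite an antisense gene, with the use of strand in counting not given. Sequence shared between paralogs was small, with 0.813% of the 31-base stretches of the longest EPHA2 transcript found in another gene, most of them in EPHB2, and 0.119% for EPHB4.

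EFNA4 is also the family gene for which the study lists qPCR primers, shown here because they read only part of what the RNA-Seq counts sum over.
forward: gtgcccactccagagagttc
reverse: tgggctgactcagacttcct
The forward primer lies in exon 3 at chr1:155067374-155067393 (GRCh38) and was found in all 3 EFNA4 transcripts of GENCODE release 29. The reverse primer spans the junction of exons 3 and 4, with 4 bases in exon 3 and 16 in exon 4, and was found in 1 of the 3 transcripts, ENST00000368409.7, where the product is 83 bases long. No other gene's annotated transcript held both primers. The counts of EFNA4 cover all 3 transcripts, and they cannot be split between transcripts here.

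The tested genes with the profile nearest to that of EFNA4 over the 6 libraries were CD99L2, ATP5PO and NOTUM. Their root mean square differences of centred log2 CPM were 0.0428, 0.0429 and 0.0444, where the median over all tested genes was 0.218. CD99L2 encodes a membrane protein, ATP5PO a subunit of ATP synthase and NOTUM a secreted inhibitor of Wnt proteins. Their log2 fold changes were -0.33, -0.31 and -0.32, close to that of EFNA4, which is what the choice by profile brings with it.

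The labelled cell type was checked against marker genes. All 10 hepatocyte and HepG2 markers were detected, and their summed level was between 25550 and 26620 CPM in the 6 libraries. By CPM in NC, APOB had the most with 7890 ± 235 CPM (SD, n = 3), before ALB with 7040 ± 280 CPM. Per length, ALB was highest in NC at 2080 FPKM, and APOB, at 532 FPKM, lay below APOA1 at 1100 FPKM and SERPINA1 at 868 FPKM. TTR was the lowest of the 10 markers at 5.9 ± 0.244 CPM in NC. Of these markers FGB, a fibrinogen chain, rose (log2 fold change 0.14, edgeR quasi-likelihood adjusted p = 0.023). Of the 7 endothelial markers, KDR, TEK and EMCN had 0 counts in all libraries, and PECAM1 was the most abundant, with a list sum of 4.845, 4.283 and 5.144 CPM in NC and 6.627, 5.628 and 6.332 CPM in ORF-Flag. PECAM1 itself was not called, with a log2 fold change of 0.39 (SE 0.13, edgeR quasi-likelihood adjusted p = 0.096) and groups that did not overlap. The 7 markers of stellate cells and fibroblasts summed to between 63.7 and 72.3 CPM, nearly all from ACTA2, with DCN at 0. These lists bear on EPHB4 and EFNB2, which blood vessels also express.

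Of the 5 cholangiocyte markers, 4 were tested and 1 was called, beside 4.45% of all tested genes. It was KRT19, a keratin of bile duct cells that HepG2 cells also express, with a log2 fold change of 0.21 (edgeR quasi-likelihood adjusted p = 0.00064). The list summed to 1079, 1045 and 1040 CPM in the NC libraries, then 1128, 1123 and 1138 CPM in the ORF-Flag libraries, with KRT7 and CFTR below 1 CPM. EPCAM, nearly as abundant as KRT19 in NC, had 496 ± 9.73 CPM (SD, n = 3) there against 492 ± 3.41 CPM for ORF-Flag (log2 fold change -0.01), and SOX9 was at 0.01, and neither was called. Of the 5 leukocyte markers, 3 were tested and 1 was called, again beside 4.45%, namely LYZ, with a log2 fold change of 0.17 (edgeR adjusted p = 0.011), while CD68 was at -0.03 and not called, and PTPRC and CD3E had 0 counts in all libraries. That list summed to 1298, 1439 and 1435 CPM in NC and 1527, 1629 and 1528 CPM in ORF-Flag, nearly all from LYZ. KRT19, LYZ, FGB and the uncalled PECAM1 thus had the sign of EPHA2 and EFNA1 while EPCAM, SOX9 and CD68 were near 0, and the part of these markers in those differences was not tested. In bulk RNA, a change in the share of cells and a change in RNA per cell cannot be told apart.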

How the data were processed

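The authors deposited counts of reads per gene, without normalization, for 20422 genes in 6 libraries. The submitters' processing notes name cutadapt 1.11, HISAT2 2.1.0, featureCounts 1.6.0, edgeR and GRCh38, and the strand setting, the annotation release and the treatment of reads shared between genes are not given in the sources used here. Of the 20422 identifiers, 20421 were given a symbol after their version was removed. In R 4.3.3, edgeR 4.0.16 was run over all genes with filterByExpr (12386 genes kept), TMM factors, the quasi-likelihood test and Benjamini-Hochberg adjustment, and standard errors came from the F statistic. The common biological coefficient of variation was 0.0389. Alternatives were DESeq2 1.42.0, limma 3.58.1 (trend with prior count 2, and voom), no TMM factors, no filter, at least 10 counts in every library, each library left out, a block for the replicate number, the longest transcript as length and a window of 250 kb. The tests were checked on simulated data with larger changes than those of the members in the main fit. That check does not bear on changes as small as theirs. Lengths and positions came from GENCODE release 29. Figures used matplotlib 3.10.9.

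Members and lists were chosen with earlier results of these data known. The text names all members and other family genes, up to 4 called genes and the most abundant gene of each list, called and nearest neighbours within 500 kb of EFNA3 with ASH1L, the 3 highest kinases and those next to a member, and 3 genes nearest to EFNA4. The called markers were named after their values were seen.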

Additional observations from a re-analysis of the deposited data

How the results depend on the processing

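The log2 fold changes of the 7 tested members kept their sign in each setting in which they were tested. This contrast chose the members, so these values describe the members and support nothing. The count of members called ran from 1 to 4 when each library was left out in turn. Without NC replicate 3, 1058 genes were called in place of 551, although fewer libraries entered the fit, and the cause was not tested. Leaving out each library gave between 199 and 1058 called genes in all. Of these, between 131 and 502 were higher and between 68 and 556 lower, with fewer libraries in each fit. The same settings gave between 0 and 1 called genes of forward signalling, between 0 and 2 of shedding and cleavage, between 0 and 2 other receptor tyrosine kinases, and between 0 and 4 within 500 kb of EFNA3. With no filter on low counts 414 genes were lower in place of 245, with more genes tested. DESeq2 called 0 forward signalling genes in place of 1, and the cause was not tested. Without TMM factors, with no filter and with the replicate block, 1 other receptor tyrosine kinase was called in place of 0, ERBB3 each time. With the longest transcript as length, EPHA2 was 2.36 times as high as EPHB4 in place of 2.87.

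The replicate numbers shared by the groups were checked for pairing. The deviations of libraries with the same number correlated at 0.0666, 0.0266 and 0.0448, and those with different numbers between -0.078 and 0.0304. All of these are small, although 5 of 6 libraries correlated best with their own number. The check cannot settle whether the numbers pair the samples weakly, and the main fit did not use them. With the replicate number as a block, 731 genes were called in place of 551, and the same count of 3 members.

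EFNA3, EFNA5 and EPHB2 were too low for a comparison at these depths, and EFNB2, at 7 to 13 counts, allows only a wide error. Differences in transcript use, protein level or receptor activation were not measured.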
